A study of Mus musculus with 12 samples.

Results

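Cell division in the left ventricle was read from 39 genes whose products copy DNA or carry out mitosis, a module named by gene symbol and not by its values. Each gene was represented by the probe set annotated to it alone that had the highest mean over 12 arrays, and 38 of the 39 had one. Ccnb1, which encodes a mitotic cyclin, had no probe set of its own in the annotation used. Of the 38, 15 passed a filter on dim signal (a log2 value above 4 on at least 3 of the 12 arrays) and were tested among the 10435 genes that passed it, of 18193 genes with a probe set of their own. The other 23 were described by level only. The arrays held RNA of whole left ventricle from male C57BL/6 mice, 1 mouse per array and 3 mice per group, with a first operation at 7 weeks of age. DB3 mice carried an aortic band for 4 weeks, had it removed and were studied 3 days later. AB mice were studied at 4 weeks with the band still in place. sDB3 mice had a sham procedure followed by the debanding step and the same 3 days, and sAB mice were studied 4 weeks after the sham procedure. The band narrows the aorta, so the ventricle works against more pressure until it is taken off. All cell types of the ventricle are mixed in such a sample, and fewer cells of a type and less RNA per cell cannot be told apart.

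A cell that is going to divide first loads the MCM helicase, a ring built of the products of Mcm2 to Mcm7, onto its replication origins, and the GINS complex, of which Gins1 is a subunit, turns it on. Pcna forms the clamp that holds polymerases on DNA, while Rrm1, Rrm2, Tyms and Tk1 supply deoxynucleotides. Mitosis is driven by Cdk1 with its cyclins and by Aurora and Polo kinases, chromosomes are held at kinetochores, and Cdc20 and Ube2c help to mark cyclins for destruction. Adult cardiomyocytes rarely divide, and much of the division in an adult heart is that of fibroblasts, endothelial cells and immune cells.

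Many of these genes share short promoter elements: E2F sites, which are common in replication genes, and CCAAT boxes with a cell cycle homology region (CHR), which are common in mitotic genes. RefSeq promoter windows of 300 bases (250 before and 50 after the start of transcription, GRCm38.p6) were matched by symbol for 33 of the 39. An E2F-type match (TTTCCCGC, TTTCGCGC, TTTGCCGC or TTTGGCGC, either strand) lay in windows of 5 of these 33 genes, against 2.26% of all 32851 windows. CCAAT was found in 28 of the 33 against 37.4% of all windows, and the CHR letters TTTGAA or TTTAAA were found in 25 of the 33 against 27.6%. A member counted if any of its windows matched, with 36 windows for the 33 genes, whereas the shares of all are of single windows. The units thus differ slightly, in favour of the members. Windows of 4 members that passed a test below are printed, 2 with CHR and no E2F-type matches (Mki67 and Cenpf) and 2 with E2F-type matches, of which Mcm5 also holds a CHR match. Each of the 4 also holds CCAAT, left in lower case. Capitals mark E2F-type and CHR matches on either strand, and in Mcm5 and Mcm6 a pair of E2F-type matches overlaps. A match describes the letters of the window and no binding was measured.
Mki67 (chr7:135716330-135716629, minus strand): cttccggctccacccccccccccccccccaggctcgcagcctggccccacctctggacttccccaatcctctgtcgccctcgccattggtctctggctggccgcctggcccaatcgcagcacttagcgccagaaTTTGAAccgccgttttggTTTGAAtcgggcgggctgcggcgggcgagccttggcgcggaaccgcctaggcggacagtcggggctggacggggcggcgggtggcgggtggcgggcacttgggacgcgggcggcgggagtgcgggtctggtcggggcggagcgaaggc
Cenpf (chr1:189688037-189688336, minus strand): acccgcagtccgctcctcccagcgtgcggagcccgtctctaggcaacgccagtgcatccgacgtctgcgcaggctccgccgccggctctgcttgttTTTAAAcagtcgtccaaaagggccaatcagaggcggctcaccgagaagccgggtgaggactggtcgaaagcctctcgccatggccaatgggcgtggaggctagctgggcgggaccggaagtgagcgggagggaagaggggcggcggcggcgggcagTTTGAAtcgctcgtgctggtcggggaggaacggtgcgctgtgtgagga
Mcm5 (chr8:75109259-75109558, plus strand): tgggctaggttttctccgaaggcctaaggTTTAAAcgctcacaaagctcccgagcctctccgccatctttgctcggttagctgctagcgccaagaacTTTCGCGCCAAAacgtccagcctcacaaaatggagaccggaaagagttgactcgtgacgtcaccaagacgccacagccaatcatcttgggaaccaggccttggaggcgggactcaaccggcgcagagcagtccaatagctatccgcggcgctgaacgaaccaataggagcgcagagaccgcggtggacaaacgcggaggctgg
Mcm6 (chr1:128359656-128359955, minus strand): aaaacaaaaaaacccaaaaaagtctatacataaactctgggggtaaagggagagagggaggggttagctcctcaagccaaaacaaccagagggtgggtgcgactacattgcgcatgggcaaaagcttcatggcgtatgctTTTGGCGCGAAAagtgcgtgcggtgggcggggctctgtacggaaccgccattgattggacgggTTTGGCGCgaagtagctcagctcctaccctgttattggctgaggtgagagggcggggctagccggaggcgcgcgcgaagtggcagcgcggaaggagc

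Most of the mitotic genes were dim in every group. Of the 38, the numbers below log2 4 on the single arrays were 25, 22 and 25 in DB3 hearts, 22, 23 and 22 in AB hearts, 24, 25 and 25 in sDB3 hearts, and 23, 23 and 23 in sAB hearts. These make shares of 63.2% in DB3, 58.8% in AB, 64.9% in sDB3 and 60.5% in sAB hearts. Of all 18193 genes, between 43.0% and 43.9% lay below log2 4 on an array, a smaller share than that of the module on all 12 arrays. Genes below it on all 3 arrays of their group numbered 22 in DB3, 21 in AB, 24 in sDB3 and 23 in sAB hearts. The shares differed between groups by a few genes, and no test was made of them.

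**Figure D1:**
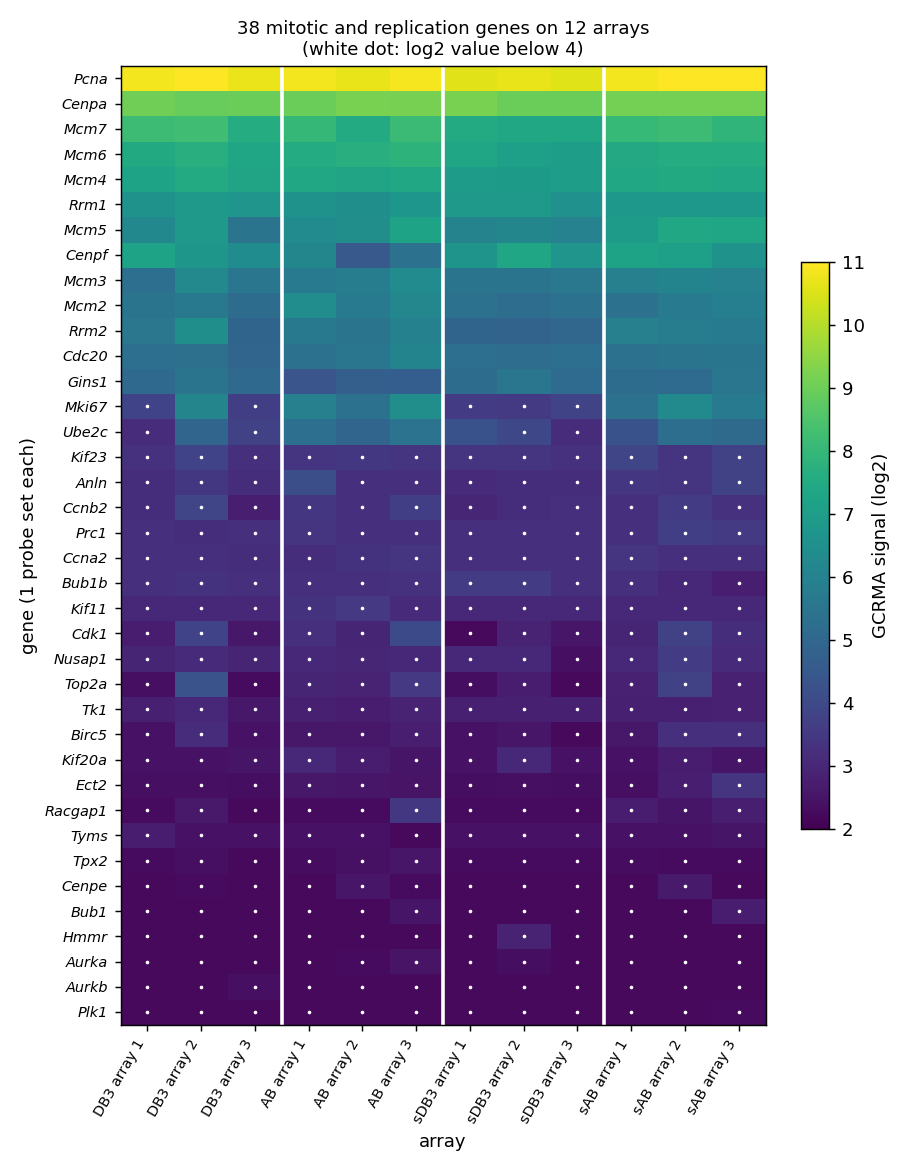
Signal (log2, colour) of the 38 genes with a probe set of their own (rows, by mean) on each of 12 arrays (columns, 3 per group), with white dots on values below 4. The lower 23 rows are dim on nearly every array, Mki67 is dotted on all sDB3 and 2 DB3 arrays, and colours are not to be compared between rows as amounts of RNA.

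Among the 23 genes that were not tested, 20 lay below log2 4 on all 12 arrays, 10 of them below 3, and 11 of the 23 spanned less than 0.5 log2 units over the 12 arrays. They include the mitotic kinases Plk1 (2.23 to 2.26), Aurka (2.23 to 2.49) and Aurkb (2.23 to 2.35), the checkpoint kinase Bub1 (2.23 to 2.67) and the kinetochore motor Cenpe (2.23 to 2.66). The lowest value in the table is 2.23, so these genes sat at or near its floor. The spindle genes Kif11 (2.99 to 3.49), Tpx2 (2.25 to 2.56), Nusap1 (2.36 to 3.56) and Hmmr (2.23 to 2.86) also stayed below 4, and so did Ccna2 (3.17 to 3.39), Bub1b (2.75 to 3.60) and Birc5 (2.23 to 3.20). Of the genes of the midzone and of cytokinesis, Kif20a reached 2.99, Kif23 3.89, Prc1 3.68, Ect2 3.41 and Racgap1 3.45, each at its highest array. Tyms (2.23 to 2.68) and Tk1 (2.58 to 3.00), of deoxynucleotide synthesis, stayed below 4 as well.

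Only 3 of the 23 passed log2 4, each on 1 array. Top2a, which untangles chromosomes, read 2.38, 4.32 and 2.27 in DB3 hearts, 2.93, 2.87 and 3.48 in AB hearts, 2.33, 2.68 and 2.23 in sDB3 hearts, and 2.84, 3.73 and 2.84 in sAB hearts. Cdk1, the kinase of mitotic entry, read 2.69, 3.83 and 2.58 in DB3, 3.21, 2.94 and 4.02 in AB, 2.23, 2.87 and 2.56 in sDB3, and 2.92, 3.74 and 3.18 in sAB hearts. Anln, a scaffold of the contractile ring, passed 4 on AB array 1 alone, at 4.15. DB3 array 2, AB array 3 and sAB array 2 were the 3 highest arrays for both Top2a and Cdk1. For both, all sDB3 arrays lay below all AB and all sAB arrays, AB and sAB overlapped, and DB3 overlapped with every other group. These dim values were not tested. Ccnb2, a mitotic cyclin, was also highest on DB3 array 2, at 3.90, and its other 11 values ran from 2.75 to 3.66. A further probe set of Ccna2, with a lower mean than the one used, passed 4 on AB array 3, at 4.16.

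A few arrays stood apart from the rest on measures outside the module. All 3 sAB arrays read 10.2 to 10.5 on the spiked BioC control against 8.28 to 8.60 on the other 9, and what sets these arrays apart cannot be told apart from the sAB group itself. DB3 array 2 held transcripts of developing T cells: of the 7 T cell and thymus markers, Rag1 read 6.79, Dntt 5.48, Cd8b1 4.71, Cd3g 4.67 and Cd3d 4.10 there, while Cd3e and Ptcra stayed below 4 on all 12 arrays. The summed signal of this list ran from 5.20 to 7.89 in DB3, 5.19 to 5.66 in AB, 5.19 to 5.20 in sDB3 and 5.19 to 5.88 in sAB hearts. Rag1 also passed 4 on AB array 1 (4.41), AB array 2 (4.28) and sAB array 2 (4.82). On sAB array 3 the summed signal of 11 of 12 monocyte and macrophage markers reached 13.98, against 13.0 to 13.1 in DB3, 13.0 to 13.2 in AB and 12.8 to 13.1 in sDB3 hearts and a lowest sAB array of 12.9, and none of the 11 lay below 4 on all 12 arrays. S100a8 and S100a9, which neutrophils make, read 8.71 and 8.77 on that array, with Ngp, Camp and Csf3r below 4 on all 12. All 8 cardiomyocyte markers were bright, with a summed signal of 18.6 to 18.8 over the 12 arrays. The atrial markers Sln, Myl7 and Myl4 varied between arrays of one group, Myl7 from 4.67 to 12.72 in DB3 hearts, and the summed signal of the 5 atrial markers ran from 13.7 to 14.9 in DB3, 15.2 to 15.5 in AB, 13.4 to 14.6 in sDB3 and 12.9 to 13.0 in sAB hearts. Where a member's call was lost without DB3 array 2 or sAB array 3, its value without that array is given below.

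**Figure D2:**
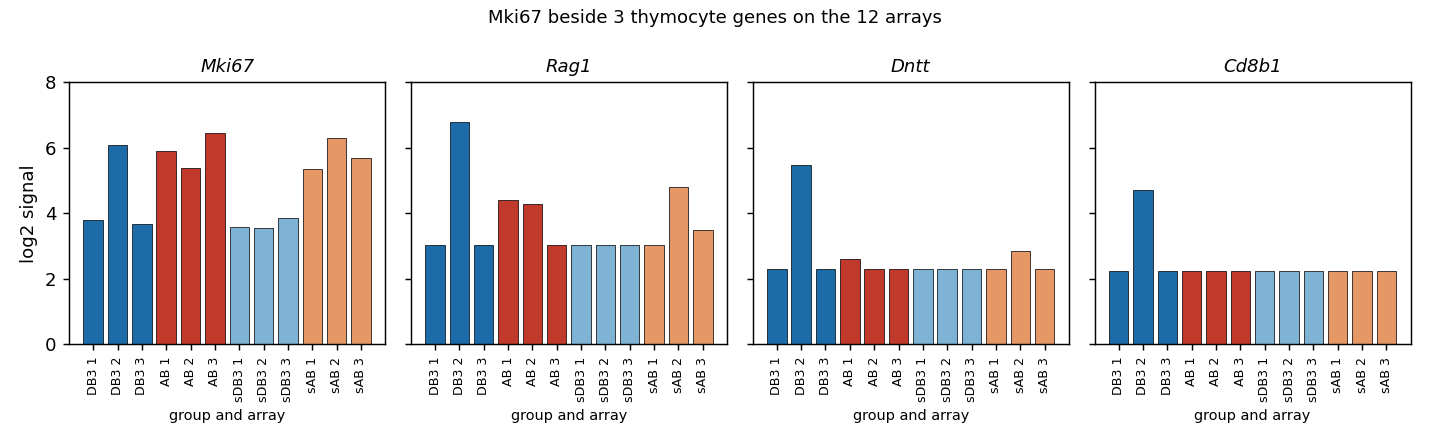
Signal (log2, bars from 0) of Mki67 and of the thymocyte genes Rag1, Dntt and Cd8b1 on the 12 arrays. DB3 array 2 is the only DB3 array with Mki67 above 4 (6.10), and it carries the highest value of Rag1 (6.79), Dntt (5.48) and Cd8b1 (4.71). AB and sAB arrays have Mki67 above 5 with Dntt and Cd8b1 below 3, and Rag1 is above 4 on AB array 1 (4.41), AB array 2 (4.28) and sAB array 2 (4.82).

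Most of the differences that passed followed 2 patterns. Mki67, Ube2c and several MCM genes were lowest in sDB3 hearts, and Cenpf and Gins1 were lowest in AB hearts. Mki67 lay below log2 4 on every sDB3 array, and Ube2c was above it on only 1 of them. Both genes passed the filter mainly through AB and sAB arrays, and with no filter none of their calls passed. In AB against sAB hearts, the comparison of banding with its own sham, 2 of the 15 members fell (Cenpf and Gins1) and none rose, where 7.69% of all tested genes fell and 19.7% passed in either direction. In DB3 against sDB3 hearts 1 member rose (Mcm4) and none fell, against 5.37% and 0.997% of all tested genes. Between DB3 and AB hearts 2 rose (Cenpf and Gins1) and none fell, against 4.04% and 5.12%. The shams differed from each other: in sDB3 against sAB hearts 5 members fell (Mki67, Mcm4, Mcm5, Mcm6 and Pcna) and none rose, against 12.3% and 5.49%. AB against sDB3 hearts gave 5 that rose (Mki67, Ube2c, Mcm2, Mcm4 and Mcm6) and 2 that fell (Cenpf and Gins1), against 17.3% and 4.69%. These groups are not matched in time: they differ in the band and also in the debanding step and the days after it. The parts of these cannot be told apart. In limma's F test over the 4 groups 7 of the 15 passed, where 37.2% of all tested genes did. All adjusted p-values come from limma, with Benjamini-Hochberg adjustment over the 10435 genes. The groups are of 3 mice, and an exact permutation test of 3 against 3 cannot go below 0.1, so every call draws on a spread that limma estimates from all 4 groups and moderates across genes. The comparisons share arrays and are not independent of each other. Groups that did not overlap were more common than calls. All sDB3 arrays lay below all sAB arrays for 9 of the 15 members, against 25.9% of all tested genes. AB lay above sDB3 for 10 and below for 2, against 32.5% and 10.5%. AB lay below sAB for 3, against 19.0%, and DB3 lay above sDB3 for 4, against 22.4%. DB3 lay above AB for 2 and below for 3, against 14.7% and 17.6%.

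The effect of debanding was also set against that of banding by their difference, (DB3 minus sDB3) minus (AB minus sAB). No member passed in it, where 6.04% of all tested genes passed. At an unadjusted p under 0.05 were 5 of the 15, against 24.2% of all tested genes. The lowest adjusted p was that of Mcm4 (limma, 0.0597), with a difference of effects of 0.43 (SE 0.12). For the 13 members above log2 4 on all 12 arrays, the median log2 difference was −0.12 in AB against sAB (all tested genes 0.01), 0.11 in DB3 against sDB3 (all 0.09) and −0.03 in DB3 against AB (all −0.02). It was −0.35 in sDB3 against sAB (all −0.09) and 0.37 in AB against sDB3 (all 0.11). In the difference of effects it was 0.41, with 10 of the 13 above 0 (all 0.07).

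**Figure D3:**
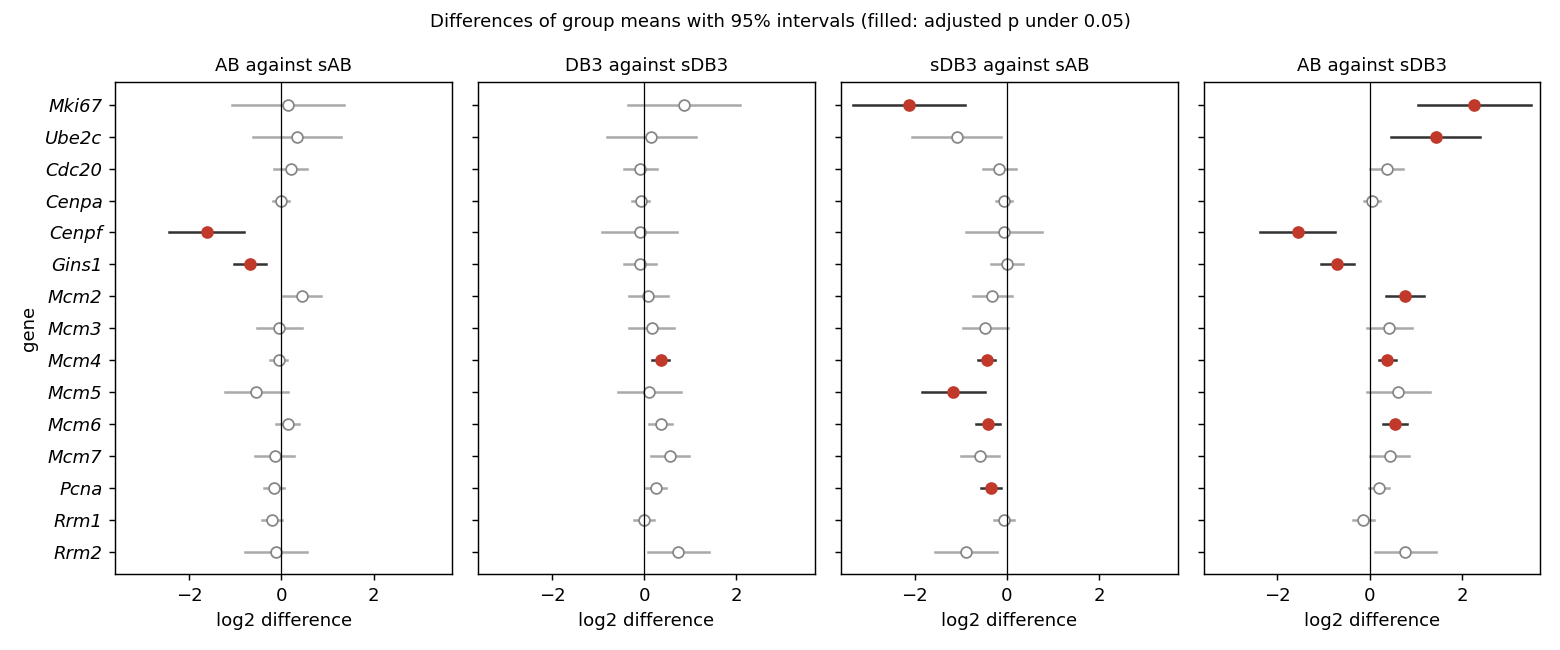
Difference of group means (log2, first group minus second) of the 15 tested genes with 95% intervals in 4 comparisons, with filled points at an adjusted p under 0.05. Cenpf and Gins1 lie left of 0 in both comparisons of AB hearts, and Mki67 lies at −2.12 in sDB3 against sAB and at 2.27 in AB against sDB3.

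Mki67 encodes the Ki-67 antigen, which coats mitotic chromosomes and is used to stain cycling cells. It read 3.80, 6.10 and 3.67 in DB3 hearts, 5.91, 5.39 and 6.46 in AB hearts, 3.57, 3.55 and 3.84 in sDB3 hearts, and 5.36, 6.29 and 5.67 in sAB hearts. The sDB3 arrays and DB3 arrays 1 and 3 were low and below 4, and DB3 array 2 lay among the AB and sAB arrays, which overlapped each other. Mki67 rose by 2.27 (SE 0.55, adjusted p = 0.0167) in AB against sDB3 hearts and fell by 2.12 (SE 0.55, adjusted p = 0.0259) in sDB3 against sAB hearts. It did not pass in AB against sAB hearts, with a difference of 0.15 (95% interval −1.07 to 1.36, adjusted p = 0.879). In DB3 against sDB3 hearts the difference was 0.87 (interval −0.35 to 2.09, adjusted p = 0.348), and it was 0.08 (adjusted p = 0.908) without DB3 array 2. In DB3 against AB hearts it was −1.40 (SE 0.55, adjusted p = 0.145) with all arrays, and without DB3 array 2 it passed, at −2.19 (SE 0.31, adjusted p = 0.00562). Leaving out single arrays moved the fall in sDB3 against sAB to between −2.33 and −1.86, and it lost its call without sDB3 array 1 or 2 or sAB array 2 or 3 (highest adjusted p 0.0822), with −2.17 (adjusted p = 0.0587) without sAB array 3. The rise in AB against sDB3 lost its call without AB array 3 (2.0, adjusted p = 0.0676). Mki67 passed the filter on dim signal through the AB and sAB arrays and DB3 array 2 and was below 4 on every sDB3 array, so both calls compare with values under the filter's limit, and no fold is given. With no filter neither call passed (adjusted p = 0.0575 in AB against sDB3 and 0.0780 in sDB3 against sAB).

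Ube2c, the ubiquitin-conjugating enzyme of the anaphase-promoting complex, followed a like order. It read 3.16, 4.94 and 3.76 in DB3, 5.30, 4.95 and 5.42 in AB, 4.28, 3.95 and 3.16 in sDB3, and 4.28, 5.27 and 5.10 in sAB hearts. All AB arrays lay above all sDB3 and all DB3 arrays, with DB3 array 2 just under the lowest AB array, and sAB arrays overlapped with sDB3. Ube2c rose by 1.43 (SE 0.43, adjusted p = 0.0393) in AB against sDB3 hearts, and its differences of −1.09 in sDB3 against sAB (adjusted p = 0.103) and −1.27 in DB3 against AB hearts (adjusted p = 0.0965) did not pass. The call in AB against sDB3 was lost in 6 of the 12 fits that leave out 1 array: without DB3 array 3, any AB array, or sDB3 array 2 or 3 (1.11 to 1.67, highest adjusted p 0.121). It was also lost after quantile normalization (1.32, adjusted p = 0.0577), after median centring (1.29, adjusted p = 0.0571), in the unmoderated analysis (adjusted p = 0.0819) and with no filter (adjusted p = 0.114). Of the sDB3 arrays and of the DB3 arrays only 1 each was above 4, so Ube2c entered the test mainly through AB and sAB arrays. Without DB3 array 2 both other differences passed, at −1.09 (adjusted p = 0.0489) and −1.76 (adjusted p = 0.0235).

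Cdc20, the activator of the same complex, did not pass in any comparison. It read 5.29, 5.34 and 4.93 in DB3, 5.35, 5.52 and 6.05 in AB, 5.30, 5.21 and 5.29 in sDB3, and 5.35, 5.48 and 5.49 in sAB hearts. All AB arrays lay above all DB3 and all sDB3 arrays, and the difference was 0.37 (SE 0.16, adjusted p = 0.124) in AB against sDB3 hearts.

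**Figure D4:**
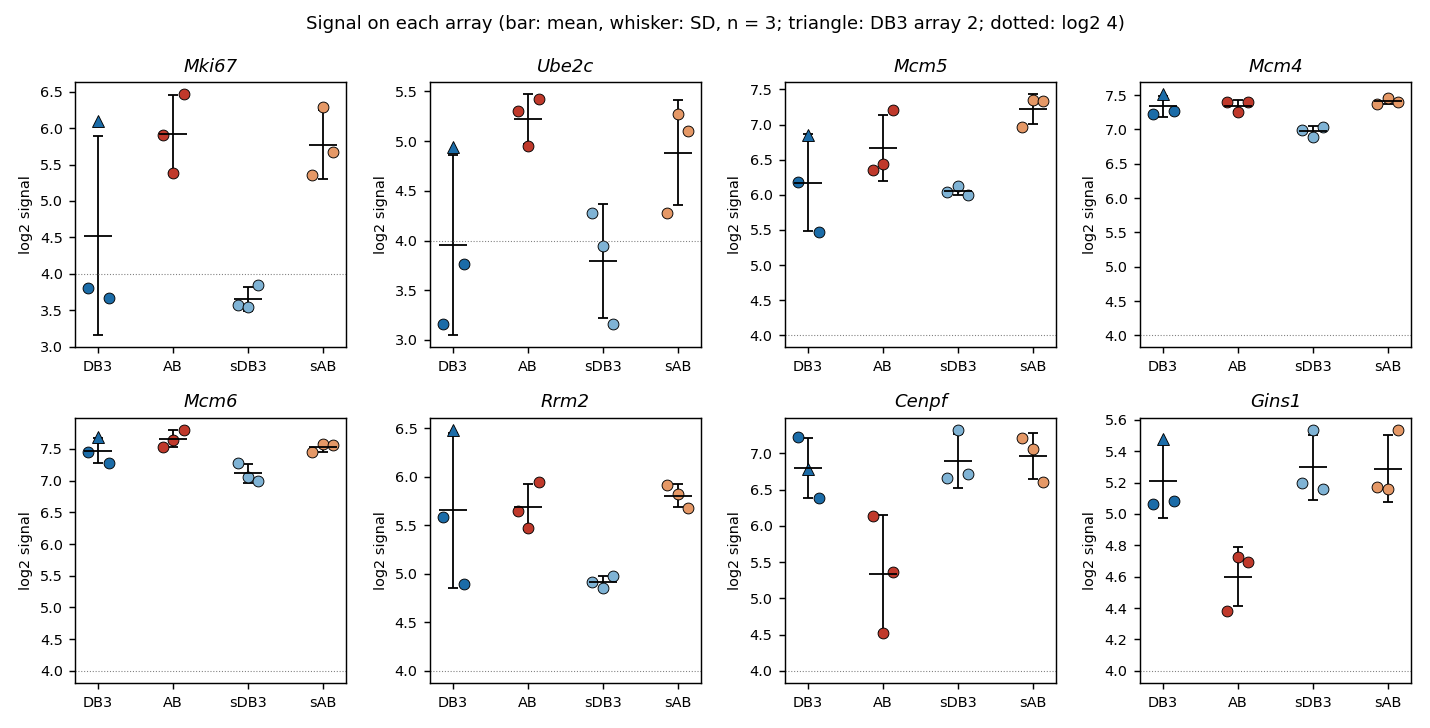
Signal (log2) of 8 genes on each array, by group, with the mean and SD (n = 3) and a triangle for DB3 array 2, and each panel with its own axis. Mki67, Ube2c and Rrm2 are high on DB3 array 2 and low on the other DB3 arrays or 1 of them, and Cenpf and Gins1 are lowest in AB hearts.

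At the kinetochore, Cenpf and Cenpa differed in how they varied. Cenpf, a large protein of the outer kinetochore and of the nuclear envelope that also binds microtubules, read 7.23, 6.78 and 6.39 in DB3 hearts, 6.14, 4.52 and 5.36 in AB hearts, 6.65, 7.32 and 6.71 in sDB3 hearts, and 7.21, 7.07 and 6.61 in sAB hearts. Every AB array lay below every array of the other 3 groups, which overlapped each other. Cenpf fell by 1.62 (SE 0.37, adjusted p = 0.0121) in AB against sAB hearts, a signal 3.08-fold higher in sAB, and by 1.56 (SE 0.37, adjusted p = 0.0150) in AB against sDB3 hearts. It rose by 1.46 (SE 0.37, adjusted p = 0.0340) in DB3 against AB hearts, where its signal was 2.75-fold higher. DB3 and sDB3 hearts differed by −0.10 (95% interval −0.91 to 0.72, adjusted p = 0.891).

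The fall of Cenpf in AB against sAB passed without each of the 12 arrays in turn (−2.02 to −1.21, adjusted p 0.00359 to 0.0450) and in all 10 other settings. In AB against sDB3 it was lost without sDB3 array 2 (adjusted p = 0.0554). The rise in DB3 against AB was lost without DB3 array 1 or 2, AB array 2 or 3, or sAB array 2 (1.05 to 1.86 over the 12 fits, highest adjusted p 0.114), with 1.47 (adjusted p = 0.0727) without DB3 array 2. It rests on 1 of 3 probe sets of the gene, and the other 2 lay between 2.23 and 2.30 on all 12 arrays. Cenpf thus moved opposite to Mki67 in AB against sDB3 hearts. Cenpa, the histone variant that marks centromeres, read 9.05, 8.89 and 8.99 in DB3, 8.98, 9.18 and 9.15 in AB, 9.20, 8.99 and 8.97 in sDB3, and 9.13, 9.13 and 9.11 in sAB hearts. Its groups overlapped in all 5 comparisons of 2 groups, and its differences between −0.13 and 0.05 did not pass.

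Gins1, a subunit of the GINS complex that joins the MCM ring in the active helicase, was also lowest in AB hearts. It read 5.06, 5.48 and 5.09 in DB3 hearts, 4.38, 4.72 and 4.69 in AB hearts, 5.20, 5.54 and 5.16 in sDB3 hearts, and 5.17, 5.16 and 5.54 in sAB hearts. Every AB array lay below every array of the other 3 groups, and those 3 overlapped. Gins1 fell by 0.69 in AB against sAB (SE 0.16, adjusted p = 0.0122), a signal 1.61-fold higher in sAB, and by 0.70 in AB against sDB3 hearts (SE 0.16, adjusted p = 0.0121). Both falls passed without each of the 12 arrays in turn (highest adjusted p 0.0427 and 0.0444). It rose by 0.61 (SE 0.16, adjusted p = 0.0369) in DB3 against AB hearts, and that call was lost without any 1 of the 3 DB3 or 3 AB arrays (0.48 to 0.68 over the 12 fits, highest adjusted p 0.104), with 0.48 (adjusted p = 0.101) without DB3 array 2. DB3 and sDB3 hearts differed by −0.09 (95% interval −0.44 to 0.26, adjusted p = 0.760). The other probe set of Gins1 stayed below 4 on all 12 arrays.

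All 6 genes of the MCM ring had their lowest group mean in sDB3 hearts, and which of them passed differed between comparisons. In sDB3 against sAB their differences ran from −1.16 to −0.31 and in AB against sDB3 from 0.37 to 0.76. Mcm2 read 5.45, 5.65 and 5.18 in DB3 hearts, 6.41, 5.71 and 6.17 in AB hearts, 5.38, 5.21 and 5.41 in sDB3 hearts, and 5.37, 5.66 and 5.90 in sAB hearts. Its AB arrays lay above all DB3 and all sDB3 arrays and overlapped with sAB. Mcm2 rose by 0.76 (SE 0.19, adjusted p = 0.0174, 1.70-fold) in AB against sDB3 hearts, a call lost without AB array 1 or 3 or sDB3 array 2 (0.61 to 0.96 over the 12 fits, highest adjusted p 0.0632). In DB3 against AB hearts the difference of −0.67 had an adjusted p of 0.0502. That difference passed after quantile normalization (−0.63, adjusted p = 0.0408), after centring each array on its median (−0.66, adjusted p = 0.0411), and without sAB array 3 (adjusted p = 0.0485). A dimmer probe set of Mcm2 differed by 0.08 (adjusted p = 0.453) in AB against sDB3 hearts.

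Mcm4 passed in 3 comparisons. It read 7.23, 7.51 and 7.27 in DB3 hearts, 7.39, 7.26 and 7.39 in AB hearts, 6.99, 6.90 and 7.03 in sDB3 hearts, and 7.37, 7.46 and 7.40 in sAB hearts. All sDB3 arrays lay below all 9 others, which overlapped. Mcm4 rose by 0.36 (SE 0.08, adjusted p = 0.0348, 1.29-fold) in DB3 against sDB3 hearts and by 0.37 (SE 0.08, adjusted p = 0.0115, 1.30-fold) in AB against sDB3 hearts, and it fell by 0.44 (SE 0.08, adjusted p = 0.00821) in sDB3 against sAB hearts. The fall, and the rise in AB against sDB3, passed without each of the 12 arrays in turn. The rise in DB3 against sDB3 was lost without DB3 array 2 (0.28, adjusted p = 0.0791) or 3, AB array 3, or sDB3 array 1 or 2 (0.28 to 0.42 over the 12 fits, highest adjusted p 0.0916). Both rises were lost after centring on the median (0.24 in each, adjusted p 0.0995 and 0.0540) and after quantile normalization (0.24 and 0.23, adjusted p 0.126 and 0.0732). The other probe set of Mcm4 had the opposite sign in both, at −0.19 in DB3 against sDB3 (adjusted p = 0.439) and −0.15 in AB against sDB3 hearts (adjusted p = 0.463).

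Mcm5 and Mcm6 were also low in sDB3 hearts. Mcm5 read 6.19, 6.85 and 5.47 in DB3, 6.36, 6.45 and 7.21 in AB, 6.04, 6.12 and 6.00 in sDB3, and 6.97, 7.35 and 7.33 in sAB hearts. Mcm6 read 7.46, 7.68 and 7.28 in DB3, 7.53, 7.64 and 7.80 in AB, 7.28, 7.06 and 7.00 in sDB3, and 7.45, 7.57 and 7.56 in sAB hearts. For both, all sDB3 arrays lay below all AB and all sAB arrays, and DB3 array 2 was the highest DB3 array. Mcm5 fell by 1.16 (SE 0.31, adjusted p = 0.0281) in sDB3 against sAB hearts, a signal 2.24-fold higher in sAB. The call was lost without any 1 sDB3 array or without sAB array 2 or 3 (−1.28 to −1.10, highest adjusted p 0.0791), with −1.10 (adjusted p = 0.0758) without sAB array 3. It comes from a probe set of a kind that can also bind related transcripts, the gene's other 2 being below 4 on all 12 arrays. Mcm6 fell by 0.41 (SE 0.11, adjusted p = 0.0326) in the same comparison and lost the call without sDB3 array 2 or 3 or sAB array 2 or 3 (−0.49 to −0.36, highest adjusted p 0.0935, and −0.40 with adjusted p = 0.0835 without sAB array 3), after quantile normalization (−0.33, adjusted p = 0.0616) and after centring (−0.33, adjusted p = 0.0593). Its rise of 0.55 (SE 0.11, adjusted p = 0.00880, 1.46-fold) in AB against sDB3 hearts passed without each array in turn and in all 10 other settings, and another probe set of Mcm6 passed too (0.84, adjusted p = 0.0209).

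Mcm3 and Mcm7 did not pass in any comparison. Mcm3 ran from 5.29 to 6.33 over the 12 arrays, with its highest values on AB array 3 and DB3 array 2 (6.23). Mcm7 ran from 7.41 to 8.25, with all sDB3 arrays (7.41 to 7.50) below all DB3 (7.57 to 8.25) and all sAB arrays (7.89 to 8.16). Its difference was 0.56 (SE 0.19, adjusted p = 0.103) in DB3 against sDB3 and −0.58 (SE 0.19, adjusted p = 0.0559) in sDB3 against sAB hearts. The 3 other probe sets of Mcm7 that were above the dim limit had the same sign in both.

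Pcna, the replication clamp, which also serves DNA repair in cells that do not divide, read 10.84, 11.06 and 10.72 in DB3 hearts, 10.85, 10.72 and 10.87 in AB hearts, 10.61, 10.69 and 10.57 in sDB3 hearts, and 10.84, 10.98 and 11.10 in sAB hearts. All sDB3 arrays lay below the 9 others, and the other groups overlapped. Pcna fell by 0.35 (SE 0.10, adjusted p = 0.0337) in sDB3 against sAB hearts, a signal 1.27-fold higher in sAB. That call was lost without any 1 sDB3 array, without sAB array 2 or 3 (−0.42 to −0.29), with −0.29 (adjusted p = 0.107) without sAB array 3, and after centring on the median (−0.26, adjusted p = 0.0821).

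Neither subunit of ribonucleotide reductase passed with all arrays. Rrm1, the large subunit, read 6.61, 6.86 and 6.71 in DB3, 6.60, 6.49 and 6.72 in AB, 6.83, 6.84 and 6.54 in sDB3, and 6.80, 6.82 and 6.80 in sAB hearts. All AB arrays lay below all sAB arrays, and no difference passed (−0.20, adjusted p = 0.176, in AB against sAB). Another probe set of Rrm1 fell by 0.34 (adjusted p = 0.0369) in sDB3 against sAB hearts when all probe sets were tested. Rrm2, the small subunit made during DNA synthesis, read 5.58, 6.48 and 4.90 in DB3, 5.65, 5.47 and 5.95 in AB, 4.91, 4.85 and 4.98 in sDB3, and 5.92, 5.82 and 5.68 in sAB hearts. DB3 array 2 was the highest of the 12 and DB3 array 3 lay among the sDB3 arrays, which were below all AB and sAB arrays. With all arrays, the differences of 0.77 in AB against sDB3 (adjusted p = 0.0897) and −0.89 in sDB3 against sAB hearts (adjusted p = 0.0637) did not pass. Without DB3 array 2 the standard error was 0.17, against 0.30 with it, and both passed at the same sizes (adjusted p 0.0137 and 0.0111), and DB3 against sDB3 changed to 0.33 (adjusted p = 0.349), against 0.74 (adjusted p = 0.156) with it. The probe set used for Rrm2 is of a kind that can also bind related transcripts. With all arrays, another probe set of Rrm2 differed by 0.25 (adjusted p = 0.620) in AB against sDB3 and by −0.52 (adjusted p = 0.282) in sDB3 against sAB hearts.

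Arrays of one group differed in how many of the 38 genes were high. Each gene's value was set against its own median over the 12 arrays, and 9 genes were more than 0.5 above it on AB array 3, 7 on sAB array 2, 6 on DB3 array 2, 5 on sAB array 3 and 4 on AB array 1. The 6 on DB3 array 2 were Birc5, Ccnb2, Cdk1, Mki67, Rrm2 and Top2a. More than 0.5 below their median were 6 genes on sDB3 array 3, 5 on DB3 array 3, 4 each on sDB3 arrays 1 and 2, 2 each on DB3 array 1 and AB array 1, and 1 each on AB arrays 2 and 3. DB3 array 2 is thus unlike the other DB3 arrays in these genes and in the thymocyte markers given above. It was also the highest DB3 array for some markers of other cells. In DB3 hearts Myh11 read 7.99, 9.67 and 8.29, Cnn1 4.83, 7.17 and 4.86, and Col1a1 8.96, 10.63 and 9.27. Ighm read 7.02, 8.38 and 6.49 there, and Myl7 9.45, 12.72 and 4.67. Other members of the same lists went the other way. S100a8 (6.71, 5.67 and 7.25) and S100a9 (6.43, 5.73 and 6.60) were lowest on DB3 array 2. So were Pdgfrb (11.4, 11.3 and 11.4), Rgs5 (13.77, 13.70 and 13.82) and Tcf21 (8.31, 8.03 and 8.25). The dim B cell genes Cd79a (3.31, 2.67 and 2.70) and Ms4a1 (3.71, 2.47 and 3.02) were lowest there too. Nppa, of the atrial list, was highest on DB3 array 3 (13.56, 13.99 and 14.29). The part of any of these markers in the result was not tested. Without DB3 array 2, no member passed in DB3 against sDB3 hearts, where 199 of 10435 tested genes rose and 36 fell. Of all tested genes 164 rose and 42 fell there without DB3 array 1, and 195 and 25 without DB3 array 3.

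Markers of other cells moved in some of the same comparisons. In AB against sDB3 hearts 6 of 8 endothelial markers rose and none fell, against 17.3% of all tested genes that rose, with a summed signal of 12.5 to 12.7 in DB3, 12.8 to 12.9 in AB, 12.5 to 12.7 in sDB3 and 12.7 in sAB hearts, and none of the 8 was below 4 on all arrays. Of 9 fibroblast markers 3 rose in AB against sAB and 1 in AB against sDB3, with a summed signal of 14.5 to 15.1 in DB3, 15.0 to 15.5 in AB, 14.5 to 14.6 in sDB3 and 14.4 to 15.3 in sAB hearts. Of 8 smooth muscle and pericyte markers 3 rose in AB against sAB and 2 in AB against sDB3 hearts. Of all tested genes 1256 of 10435 rose in AB against sAB. In sDB3 against sAB hearts the endothelial Emcn (−0.52, adjusted p = 0.0221) and the macrophage gene Cd14 (−0.77, adjusted p = 0.0197) fell and Nr2f2, of the atrial list, rose (0.74, adjusted p = 0.00867). The median of the 11 macrophage markers there was −0.45, against −0.09 for all tested genes. The cardiomyocyte markers Ryr2 and Tnni3, of 8, fell in AB against sDB3 hearts (−0.31 and −0.18, adjusted p 0.0237 and 0.0396). Cx3cr1 was the macrophage marker that rose in AB against sAB (0.91, adjusted p = 0.00325) and AB against sDB3 hearts (1.02, adjusted p = 0.00239), of 11 tested. The median of the 11 was −0.29 in AB against sAB, so most of them went the other way there, and 0.16 in AB against sDB3 hearts. The medians of all tested genes were 0.01 and 0.11. Of 3 tested erythroid markers Tfrc fell in DB3 against sDB3 and in DB3 against AB hearts and Slc4a1 fell in AB against sDB3 hearts. The median of the 3 was −0.15, 0.95 and −0.62 in the same order. In DB3 against AB hearts Alas2 and Slc4a1 thus went the other way from Tfrc. For both, every DB3 array lay above every AB array, with Alas2 at 9.45, 8.18 and 8.87 in DB3 and 7.90, 7.48 and 7.85 in AB hearts. Neither of 2 tested B cell nor of 2 tested neutrophil markers passed in any comparison. The 3′ minus 5′ signal of Actb, a measure of RNA integrity, was 1.11 to 1.32 in DB3, 1.02 to 1.13 in AB, 1.20 to 1.25 in sDB3 and 1.20 to 1.26 in sAB hearts. The part of any of these in the differences of the module was not tested.

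The level of all genes also moved between arrays, and rescaling changed some calls. The median difference of all tested genes was 0.11 in AB against sDB3 and 0.09 in DB3 against sDB3 hearts as deposited, and −0.03 in each after every array was centred on its median over tested probe sets. Over all tested genes, 1809 rose and 489 fell in AB against sDB3 hearts, against 809 and 1218 after centring and 895 and 762 after quantile normalization. In DB3 against sDB3 these were 560 and 104, against 137 and 329, and 106 and 97. In sDB3 against sAB they were 573 and 1288, against 893 and 589, and 712 and 738, and in AB against sAB 1256 and 802, against 1038 and 1171, and 1101 and 1113. The difference of effects gave 360 and 270, against 171 and 393, and 243 and 340. Among the members' calls, that of Ube2c, the rises of Mcm4 and the falls of Mcm6 and Pcna were lost in at least 1 of these rescalings, and none changed sign.

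The wider cell cycle was read from 4 further lists of genes outside the 39. Of 74 other genes of the spindle, kinetochore and mitotic exit, 72 had a probe set and 20 were tested, so most did not pass the filter on dim signal. Of the 20, none rose and 5 fell in AB against sAB, 1 rose in DB3 against sDB3, 3 rose in DB3 against AB, 5 fell in sDB3 against sAB and 4 rose in AB against sDB3 hearts, and 3 were higher in the difference of effects. Of all tested genes 7.69% fell in AB against sAB, 5.37% rose in DB3 against sDB3, 4.04% rose in DB3 against AB, 12.3% fell in sDB3 against sAB and 17.3% rose in AB against sDB3 hearts. In the difference of effects 360 of 10435 tested genes were higher. Ska2, of the complex that couples kinetochores to microtubules, fell by 0.57 (SE 0.12, adjusted p = 0.00993) in AB against sAB hearts. Nde1, which positions dynein on the spindle and also acts in cells that do not divide, averaged 8.23 ± 0.08 in DB3, 8.14 ± 0.02 in AB, 7.95 ± 0.08 in sDB3 and 8.36 ± 0.02 in sAB hearts (SD, n = 3). It was the spindle gene with the lowest adjusted p in the difference of effects (0.50, SE 0.09, adjusted p = 0.0153), fell by 0.41 (adjusted p = 0.00322) in sDB3 against sAB, and both passed without each array in turn. Smc4, a condensin subunit, rose by 0.49 (SE 0.10, adjusted p = 0.0101) in AB against sDB3 hearts, and passed without each array in turn. The list's median difference was 0.19 in DB3 against sDB3, −0.03 in DB3 against AB, −0.08 in AB against sAB, −0.23 in sDB3 against sAB and 0.16 in AB against sDB3 hearts, and 0.31 in the difference of effects. The medians of all tested genes are given above.

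Of 65 other genes of DNA replication and nucleotide supply, 62 had a probe set and 38 were tested. In AB against sAB 1 rose and 4 fell, in DB3 against sDB3 1 fell, in DB3 against AB 1 rose and 1 fell, in sDB3 against sAB 2 rose and 11 fell, and in AB against sDB3 5 rose and 2 fell, and 2 were higher in the difference of effects. The 11 of 38 that fell in sDB3 against sAB stand beside 12.3% of all tested genes, and the 5 that rose in AB against sDB3 beside 17.3%. Of all tested genes 1256 of 10435 rose and 7.69% fell in AB against sAB, and 0.997% fell in DB3 against sDB3 hearts. In DB3 against AB 4.04% rose and 5.12% fell, 5.49% rose in sDB3 against sAB and 4.69% fell in AB against sDB3 hearts. In the difference of effects 360 of 10435 were higher. The list's median difference was −0.10, 0.14, 0.04, −0.26, 0.12 and 0.21 in the same order. Timeless, which protects replication forks, averaged 7.73 ± 0.31 in DB3, 8.39 ± 0.21 in AB, 7.36 ± 0.07 in sDB3 and 7.63 ± 0.05 in sAB hearts (SD, n = 3). It rose in AB against sAB (0.76, adjusted p = 0.00501) and in AB against sDB3 hearts (1.03, adjusted p = 0.00138), both passing without each array in turn. It fell in DB3 against AB hearts (−0.67, adjusted p = 0.0182), a call lost without DB3 array 2 (−0.59, adjusted p = 0.0556) or 3 or AB array 2 or 3 (highest adjusted p 0.0764). Fen1, the flap nuclease of lagging-strand synthesis, was highest in sDB3 hearts. It averaged 7.42 ± 0.08 in DB3, 7.15 ± 0.08 in AB, 8.04 ± 0.31 in sDB3 and 7.39 ± 0.15 in sAB hearts (SD, n = 3). It rose in sDB3 against sAB by 0.65 (adjusted p = 0.0122) and fell in AB against sDB3 hearts by 0.89 (adjusted p = 0.00240), both passing without each array in turn. Rfc3, of the clamp loader, fell by 0.83 (adjusted p = 0.00676) in sDB3 against sAB hearts, and Rpa1, which coats single-stranded DNA, fell by 0.40 (adjusted p = 0.00477) in AB against sAB hearts. Dut, which clears dUTP, rose by 0.44 (adjusted p = 0.00515) in DB3 against AB hearts.

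Of the regulators of entry into the cycle, Myc and D-type cyclins were among those that passed. Of 32 listed, all had a probe set and 21 were tested, with 4 that rose in AB against sAB (Myc, Ccnd3, Ccnd2 and Lin37), 2 that rose and 1 that fell in DB3 against sDB3 (Myc, Lin37 and Mycn), and 1 that rose and 3 that fell in DB3 against AB hearts (Tfdp2, Mycn, Ccnd1 and Myc). In sDB3 against sAB 2 fell (Skp2 and Cdc25a) and in AB against sDB3 4 rose (Myc, Lin37, Ccnd2 and E2f3). Of all tested genes 12.3% fell in sDB3 against sAB and 17.3% rose in AB against sDB3 hearts. In AB against sAB 1256 of 10435 rose. In DB3 against sDB3 5.37% rose and 0.997% fell, and in DB3 against AB hearts 4.04% rose and 5.12% fell. The fall of Mycn in DB3 against sDB3 was lost without DB3 array 2 (−0.92, adjusted p = 0.0814) or 3, AB array 2, or any 1 sDB3 array. That of Myc in DB3 against AB was lost without DB3 array 2 (−0.62, adjusted p = 0.0598) or AB array 2 or 3 (highest adjusted p 0.0798). Without sAB array 3 the falls of Skp2 (−0.62, adjusted p = 0.0573) and Cdc25a (−0.54, adjusted p = 0.110) were lost, and both were also lost without sAB array 2. The call of Lin37 in DB3 against sDB3 held in 8 of the 12 fits that leave out 1 array, and that of Cdc25a in 4. Myc, a transcription factor of growth and of cycle entry, read 5.41, 5.23 and 5.38 in DB3 hearts, 5.63, 6.32 and 6.08 in AB hearts, 4.79, 4.61 and 4.64 in sDB3 hearts, and 4.90, 4.66 and 4.84 in sAB hearts. AB arrays lay above all others and DB3 arrays between them and the shams. Myc rose by 1.21 (SE 0.15, adjusted p = 5.4e-04) in AB against sAB and by 0.66 (SE 0.15, adjusted p = 0.0334) in DB3 against sDB3 hearts, and the DB3 call was lost without any 1 DB3 or sDB3 array (highest adjusted p 0.0906, and 0.72 with adjusted p = 0.0583 without DB3 array 2). Ccnd2, a D-type cyclin, rose by 0.36 (SE 0.08, adjusted p = 0.0133) in AB against sAB hearts and passed without each array in turn. Ccnd1, another, fell in DB3 against AB hearts by 0.82 (SE 0.13, adjusted p = 0.00512) and Mycn by 1.38 (SE 0.22, adjusted p = 0.00512), both passing without each array in turn. The list's median difference was 0.00 in AB against sAB and 0.11 in DB3 against sDB3 hearts, next to 0.01 and 0.09 for all tested genes.

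Of 25 cell cycle inhibitors and checkpoint genes, 24 had a probe set and 22 were tested. None passed in AB against sAB, 1 rose in DB3 against sDB3 (Rbl2), 2 rose in DB3 against AB (Wee1 and Cdkn1b), 1 fell in sDB3 against sAB (Rbl1) and 3 rose in AB against sDB3 hearts (Cdkn1a, Rbl1 and Rbl2). Of all tested genes 19.7% passed in either direction in AB against sAB, 5.37% rose in DB3 against sDB3 and 4.04% rose in DB3 against AB hearts. In sDB3 against sAB 12.3% fell, and in AB against sDB3 hearts 17.3% rose. The call of Cdkn1a held in 7 of the 12 fits that leave out 1 array, and that of Rbl2 in 5. In DB3 against sDB3 that of Rbl2 was lost without any 1 DB3 or sDB3 array (highest adjusted p 0.062, and 0.45 with adjusted p = 0.0544 without DB3 array 2). Rbl1, the p107 pocket protein, averaged 4.40 ± 0.09 in DB3, 4.67 ± 0.14 in AB, 3.89 ± 0.21 in sDB3 and 4.86 ± 0.24 in sAB hearts (SD, n = 3). It fell by 0.96 (adjusted p = 0.00228) in sDB3 against sAB and rose by 0.78 (adjusted p = 0.00398) in AB against sDB3 hearts, both passing without each array in turn. The sDB3 mean of Rbl1 lay under the filter's limit of log2 4 and its other group means above it. Both calls thus compare with a dim group, and Rbl1 entered the test mainly through the groups where it was higher. Wee1, which holds back mitotic entry by phosphorylating Cdk1, rose by 1.38 (SE 0.31, adjusted p = 0.0209) in DB3 against AB hearts, and that call was lost without DB3 array 2 (1.20, adjusted p = 0.0632), DB3 array 1 or AB array 2 or 3 (highest adjusted p 0.0844). Of the 60 differences that the naming rule picked over the 4 lists, 21 passed without each of the 12 arrays in turn.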

How the data were processed

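RNA of 12 left ventricles (3 µg per array, per the labels' protocols) was measured on 1-colour Affymetrix arrays of 45101 probe sets. The deposited values are log2 signals that the authors made with GCRMA, per the submitters' processing notes, and the sources used here give neither its version nor whether all 12 arrays were normalized together. No scanner intensities were used. Of the probe sets, 34945 had 1 gene symbol, 932 several and 9160 none, 64 were controls, and 34741 were found by gene ID in the RefSeq table. Probe sets above log2 4 on at least 3 arrays (17817) were kept, with 1 per gene, the highest in mean, for 10435 genes. The values were taken as deposited and fitted in limma 3.58.1 (R 4.3.3, lmFit and eBayes, 1 model of 4 groups), with Benjamini-Hochberg adjustment over all 10435 genes and a threshold of 0.05. The procedure was tested on simulated data.

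The members and lists (other spindle genes, other replication genes, entry regulators, inhibitors and checkpoint genes, and cell type markers) were chosen with earlier results of these data known. So was the comparison of AB with sDB3 hearts, added because the sAB arrays stood apart on a spiked control. All members are accounted for, and of each further list up to 4 genes per comparison, those with the largest absolute log2 difference among the ones that passed, could be named. Replicate numbers are in accession order and only name arrays. The labels give no batch or litter. Correlations between arrays were 0.9955 to 0.9983 within groups and 0.9933 to 0.9969 between groups, and the number of arrays limits the precision. Alternatives were other filters, probe set rules, quantile normalization, median centring, other variance settings, only the compared groups, and leaving out arrays. Leaving out DB3 array 2 and sAB array 3 together was chosen after seeing the data.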

Additional observations from a re-analysis of the deposited data

How the results depend on the processing

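Counts of members called moved with the settings, as did those of all tested genes given beside them. With no filter on dim probe sets, 38 members stood among 18193 genes. Of these members 0 rose in DB3 against sDB3 and 0 in DB3 against AB, 1 fell in sDB3 against sAB, and 2 rose and 1 fell in AB against sDB3 hearts. Of the 18193 genes these numbers were 265, 279, 820, 1225 and 377. With the filter at log2 6, 1 fell in AB against sAB, 1 rose in DB3 against AB, 3 rose and 1 fell in AB against sDB3, and 1 was higher in the difference of effects. That filter left 8730 genes, with 823, 468, 1751, 486 and 443 called in the same order. After quantile normalization 0 rose in DB3 against sDB3, 1 fell in DB3 against AB and 3 rose in AB against sDB3, beside 106, 537 and 895 of all 10435 tested genes. After median centring the same counts of members were 0, 1 and 3, and 3 fell in sDB3 against sAB, beside 137, 511, 809 and 589 of all tested genes. The mean of probe sets gave 0 members that rose in DB3 against sDB3, where 462 of all tested genes rose. Fitting only the compared groups gave 0 there and 0 in DB3 against AB, beside 0 and 252 of all tested genes. The unmoderated analysis gave 0 members that rose in DB3 against AB and 2 that fell in sDB3 against sAB, beside 348 and 1123 of all tested genes. Trend with robust moderation gave 1 that fell in DB3 against AB, beside 655. Without both DB3 array 2 and sAB array 3, 0 rose in DB3 against sDB3, and 0 rose and 3 fell in DB3 against AB, beside 145, 259 and 401 of all tested genes.

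Leaving out each array in turn gave 0 to 1 risen and 2 fallen in AB against sAB, 0 to 2 and 0 in DB3 against sDB3, 0 to 2 and 0 to 2 in DB3 against AB, 0 and 1 to 7 in sDB3 against sAB, 2 to 6 and 1 to 2 in AB against sDB3, and 0 to 1 higher in the difference of effects. Over all 10435 tested genes these fits gave 766 to 1291 risen and 373 to 834 fallen in AB against sAB, and 133 to 458 and 25 to 80 in DB3 against sDB3. They gave 149 to 446 and 216 to 585 in DB3 against AB, and 340 to 602 and 588 to 1343 in sDB3 against sAB. In AB against sDB3 they gave 900 to 1840 and 224 to 514, and 58 to 325 were higher in the difference of effects. Without DB3 array 2, Mki67 and Ube2c fell in DB3 against AB hearts and no member rose, where 426 of all tested genes fell and 306 rose. The share of members below log2 4 was 61.8 to 65.8% in DB3, 57.9 to 59.2% in AB, 64.5 to 65.8% in sDB3 and 60.5% in sAB hearts. Below log2 3 it was 40.4%, 37.7%, 42.1% and 36.0% in the same order, and below log2 5 it was 66.7% in DB3, 64.9% in AB, 68.4% in sDB3 and 61.4% in sAB. With the mean of probe sets it was 78.1% in DB3, 71.1% in AB, 80.7% in sDB3 and 70.2% in sAB. The cause was not tested for any of these. For the 17 member differences that passed in the main fit, 286 refits in other settings kept the call, 83 lost it and none changed sign. Differences that did not pass in the main fit are not in these counts, and some of them passed in other settings, as given above. Signals near the floor limit what can be said of the 23 dim genes. No paired analysis was possible because the labels number no replicates across groups.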
